A study of Mus musculus with 10 samples.

Results

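The genes described here encode the cohesin complex, its loader, its release and docking factors, and the boundary protein CTCF. The members are Smc1a, Smc3, Rad21, Stag1, Stag2, Nipbl, Wapl, Pds5a, Pds5b and Ctcf. They were measured by promoter-capture Hi-C, which ligates fixed chromatin fragments that touch one another and then enriches the ligated products for promoters. A captured promoter fragment is called a bait, and each listed pair is a bait and another HindIII fragment with 1 interaction score per library. A member was taken up when a bait in the lists held the start or the end of its gene. By that rule 4 of the 10 members were found, against 11,505 protein-coding genes in all, and they had 57 of the 88,624 pairs listed for progenitor cells and 6 of the 25,622 pairs listed for neutrophils. Wapl had 18 progenitor pairs, Pds5a 30, Pds5b 8 and Smc1a 1, whereas Smc3, Rad21, Stag1, Stag2, Nipbl and Ctcf had no listed bait at either gene end.

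The study compared 4 genotypes of haematopoietic stem and progenitor cells (HSPCs), which were bone marrow cells of C57BL/6 mice depleted of lineage-positive cells, and wild-type neutrophils from the same tissue, with 2 biological replicates in each of the 5 groups. The HSPC groups were wild type (WT), Npm1flox-cA/+;Mx1-Cre+ (Npm1c), Flt3ITD/+ (Flt3-ITD) and Npm1flox-cA/+;Flt3ITD/+;Mx1-Cre+ (the double mutant, DM). Npm1c and Flt3-ITD are mutations of acute myeloid leukaemia. The Mx1 promoter turns on Cre in cells that respond to interferon, and the WT and Flt3-ITD labels name no Cre, so Npm1c and Cre itself cannot be told apart. The labels do not give the ages of the mice. Lineage-negative cells are a mixture, so a change in the contacts of a cell type and a change in its share of the cells cannot be told apart.

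Cohesin is a ring of SMC1A, SMC3 and RAD21 with a STAG subunit, and it holds sister chromatids together and extrudes loops of DNA. NIPBL loads the ring and drives extrusion, CTCF bound to DNA stops it, PDS5A and PDS5B dock on it, and WAPL opens it and takes it off chromatin. STAG2, RAD21, SMC1A and SMC3 are mutated in myeloid leukaemia, which is the disease setting of both alleles studied here. The measurements below concern the contacts that the promoters of these genes made. They are not measurements of the proteins or of where cohesin sat.

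The baits cover the starts of all 4 genes. Wapl lies on the forward strand at chr14:34672379-34747983 (mm10), and its bait is chr14:34670778-34674663. Pds5a lies on the reverse strand at chr5:65605719-65698236 with the bait chr5:65691916-65700347. Pds5b lies on the forward strand at chr5:150673713-150810669 with the bait chr5:150671767-150674920. Smc1a lies on the forward strand at chrX:152016428-152061973, and its bait, chrX:152009838-152018415, also holds the start of Ribc1. The 250 bases before the start of Wapl, Pds5a and Pds5b, whose contacts make up most of the values below, are shown as RefSeq gives them (GRCm38.p6, the assembly behind mm10, read 5′ to 3′ on the strand of the gene). For Wapl and Pds5b the start used there lies inside the gene span given above. They come from chr14:34673678-34673927, chr5:65698237-65698486 and chr5:150673577-150673826. Capitals mark the letters CCAAT and AGGGGGC on either strand.
Wapl: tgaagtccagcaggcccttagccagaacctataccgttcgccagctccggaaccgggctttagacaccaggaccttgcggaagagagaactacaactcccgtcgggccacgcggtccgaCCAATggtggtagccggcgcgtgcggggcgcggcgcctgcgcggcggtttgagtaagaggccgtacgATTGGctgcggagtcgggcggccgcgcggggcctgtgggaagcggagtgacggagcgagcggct
Pds5a: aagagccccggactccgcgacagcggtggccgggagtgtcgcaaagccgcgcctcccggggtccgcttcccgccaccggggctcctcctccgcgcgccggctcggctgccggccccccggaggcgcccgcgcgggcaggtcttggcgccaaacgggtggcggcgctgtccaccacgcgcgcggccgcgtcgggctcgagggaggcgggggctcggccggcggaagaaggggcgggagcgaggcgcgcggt
Pds5b: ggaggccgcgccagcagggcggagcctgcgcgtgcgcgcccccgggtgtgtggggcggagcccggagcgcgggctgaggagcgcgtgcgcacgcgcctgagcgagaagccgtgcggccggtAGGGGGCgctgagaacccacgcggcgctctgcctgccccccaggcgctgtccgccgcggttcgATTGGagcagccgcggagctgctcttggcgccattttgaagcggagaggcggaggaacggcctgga
All of these stretches are rich in G and C, at 67.6% for Wapl, 80.4% for Pds5a and 75.6% for Pds5b, against a median of 52.4% over 32,851 RefSeq promoters of the same length. The search covered both strands for CCAAT (in 33.8% of those promoters), AGGGGGC, letters from the core of the CTCF motif (9.43%), CCGGAAG of the ETS family (6.91%) and the E-box CACGTG (6.02%). CCAAT begins 131 bases before the Wapl start on the forward strand and 64 bases before it on the reverse strand. Pds5b has AGGGGGC at 129 bases and a reverse CCAAT at 66 bases before its start, and no match overlaps another. The Pds5a stretch holds none of the 4 words. A match is a description of the letters and not evidence of binding.

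Pooled over the 4 genes, fewer promoter contacts were strong in mutant than in WT progenitors, and fewest in DM. Pds5b was not lower in the single mutants, with 4 contacts in WT, 4 with Npm1c, 7 with Flt3-ITD and 3 in DM. A pair was counted as a contact of a group when both of its libraries scored at least 5, and the HSPC list holds pairs that did so in at least 1 group. Of the 57 pairs, 35 (61.4%) were contacts in WT, 27 (47.4%) with Npm1c, 26 (45.6%) with Flt3-ITD and 13 (22.8%) in DM. Over all listed pairs WT had the lowest share, with 34.9%, 41.8% with Npm1c, 51.2% with Flt3-ITD and 48.8% in DM. Library medians over the whole list were also lower in WT, at 4.76 and 5.18, than in DM, at 5.55 and 5.63. The counts for the members carry no test, because the list itself was built from the same threshold.

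**Figure D1:**
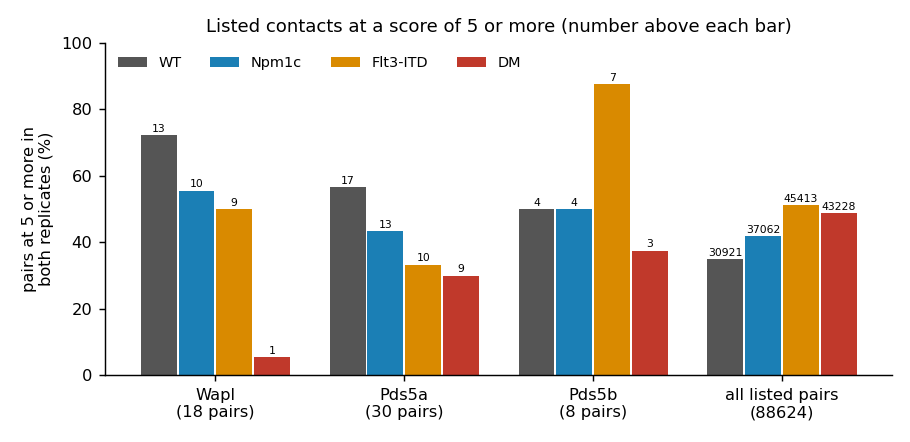
Listed pairs of each member that scored at least 5 in both libraries, by HSPC group, with the same share over all listed pairs. Wapl went from 13 of 18 in WT to 1 of 18 in DM and Pds5a from 17 of 30 to 9 of 30, while Pds5b had its most contacts, 7 of 8, in Flt3-ITD.

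Wapl, the release factor, stood lowest in DM. Its promoter had 13 contacts in WT, 10 with Npm1c, 9 with Flt3-ITD and 1 in DM. The median score over its 18 pairs was 6.80 and 6.41 in the WT libraries, 5.18 and 7.34 in Npm1c, 5.47 and 5.42 in Flt3-ITD, and 2.33 and 2.99 in DM. Both DM libraries were thus below the 6 others, though groups other than DM brought all these pairs into the list, which favours that order. Each DM library on its own had 2 pairs at 5 or more, so the single contact did not come from 1 low replicate. No contact of Wapl was shared by all 4 groups, against 10.2% of all listed pairs. It had 4 contacts that WT, Npm1c and Flt3-ITD shared and DM lacked, 4 found in WT alone, 3 in Npm1c alone, 1 in Flt3-ITD alone and 0 in DM alone. Over all 88,624 listed pairs these counts were 2964, 9087, 10784, 13657 and 16387 in the same order.

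The test used log2 of the score plus 1, averaged over the pairs of a promoter that groups outside the contrast had brought into the list, and fitted with limma over all promoters with at least 10 such pairs. For DM against WT these were 14 pairs of Wapl. Their mean was 2.86 and 2.61 in WT, 2.67 and 3.24 in Npm1c, 2.76 and 2.71 in Flt3-ITD, and 1.84 and 2.04 in DM. Both DM libraries were below both WT libraries. They were also below those of Npm1c and Flt3-ITD, but these groups brought the pairs into the list, which favours that order. DM minus WT was -0.79 (SE 0.20, n = 2 against 2, adjusted p = 0.0329 by limma), rank 12 from the lowest among 1841 promoters, of which 7.55% were called in either direction and 1.2% as lower. Over all promoters that was 117 higher and 22 lower, and after quantile normalization of the libraries 82 and 133. The call did not hold when any 1 of the WT or DM libraries was left out (differences from -0.91 to -0.67, adjusted p from 0.0915 to 0.163), or with a pseudocount of 0.1 (adjusted p = 0.0645).

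Against the single mutants the Wapl promoter was lower in DM as well. On 17 pairs its mean was 2.63 and 2.63 in Flt3-ITD and 1.82 and 1.99 in DM, a difference of -0.73 (SE 0.18, adjusted p = 0.0425 by limma), where 4.3% of promoters were called and 4.23% as lower. That call too was lost when any 1 library of either group was left out (adjusted p from 0.151 to 0.192). On 15 pairs the mean was 2.52 and 3.19 in Npm1c and 1.83 and 2.09 in DM, a difference of -0.90 (SE 0.21, adjusted p = 0.0634), which did not pass, beside 0.868% of promoters called and 0.578% as lower. It was -1.23 (adjusted p = 0.00412) without Npm1c replicate 1 and -0.56 (adjusted p = 0.0977) without Npm1c replicate 2. It was -0.77 (adjusted p = 0.238) without DM replicate 1 and -1.03 (adjusted p = 0.207) without DM replicate 2. These comparisons share the DM libraries and are not independent of each other.

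The single mutants gave small differences from WT at Wapl. Flt3-ITD minus WT was -0.06 (SE 0.17, adjusted p = 0.836 by limma, 10 pairs), beside 7.21% of promoters called. Npm1c minus WT rested on 9 pairs, under the minimum of 10, where 0.102% of promoters were called. With the minimum at 5 pairs it was 0.11 (SE 0.27, adjusted p = 0.914), and 0% of promoters were called. The test that asks whether DM differs from the sum of the single-mutant effects used all 18 pairs, whose means were 2.92 and 2.71 in WT, 2.56 and 3.14 in Npm1c, 2.63 and 2.65 in Flt3-ITD, and 1.79 and 1.97 in DM. This interaction was -0.80 (SE 0.28, unadjusted p = 0.0132, adjusted p = 0.101 by limma), which did not pass, beside 7.48% of promoters called and 7.2% in the lower direction. It ran from -1.09 to -0.51 when 1 library was left out.

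**Figure D2:**
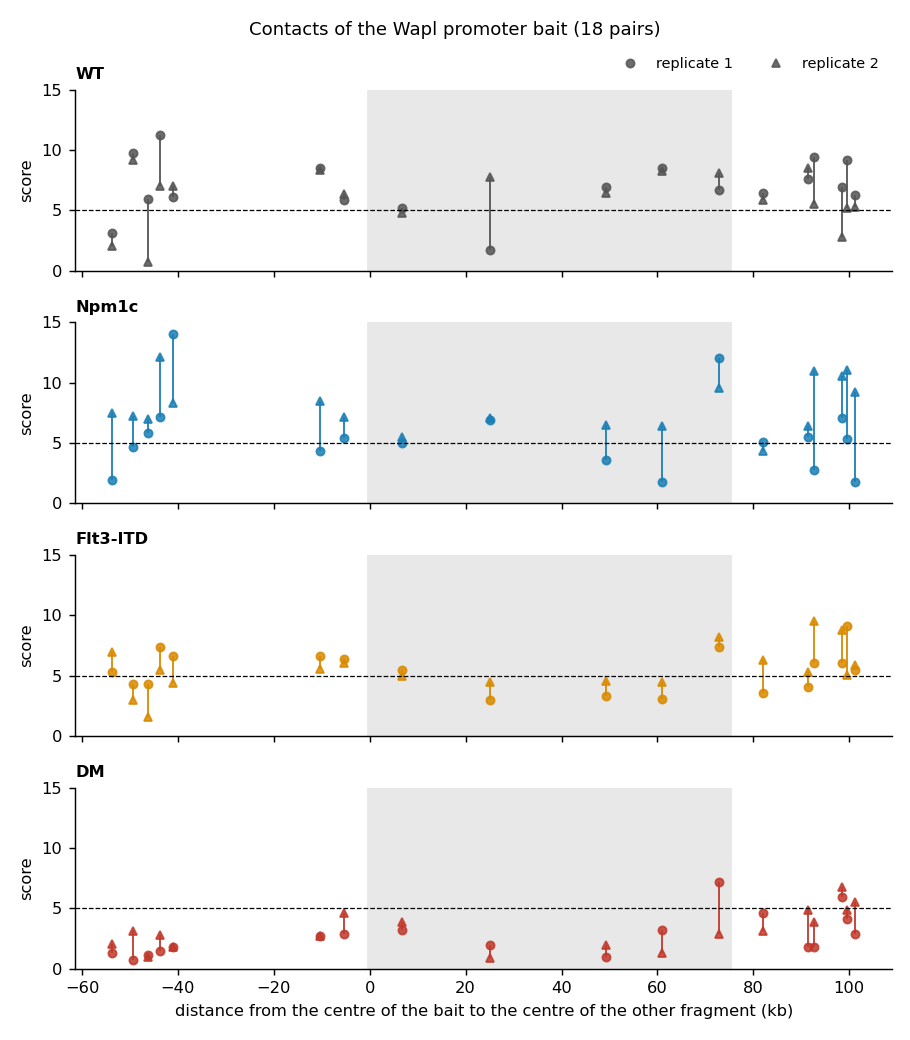
Score of each of the 18 Wapl pairs in the 8 HSPC libraries, by distance of the other end from the bait in kb; circles are replicate 1, triangles replicate 2, the grey band is the span of the gene and the dashed line marks a score of 5. The DM points lie below 5 on both sides of the gene and inside it, except at a few fragments, among them the one at 98.5 kb that scored 5.91 and 6.77.

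The lower scores of Wapl in DM lay on both sides of the gene and inside it. The other ends lay from -53.7 to 101 kb of the bait, all on the same chromosome, 7 below the gene start, 5 inside the gene and 6 beyond its end. None of them was itself a bait, whereas 23.6% of all listed pairs joined a pair of baits. Below the start, WT had 5 contacts, Npm1c 4, Flt3-ITD 4 and DM 0. Inside the gene they numbered 3, 3, 1 and 0 in the same order, and beyond the end 5, 3, 4 and 1. Both DM libraries were below both WT libraries at 6 of the 7 pairs below the start, 3 of the 5 inside and 4 of the 6 beyond the end, where 19.4% of all listed pairs were. WT itself had 13 of the 18 as contacts, which favours this count.

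The pair with the highest mean score over the 8 libraries joined the promoter to the 3′ part of the gene at chr14:34744887-34746198, 72.8 kb away. It scored 6.71 and 8.12 in WT, 12.1 and 9.55 in Npm1c, 7.37 and 8.23 in Flt3-ITD, and 7.23 and 2.85 in DM. The DM libraries disagreed there, and the first lay among the WT values. Next came chr14:34770897-34771472, beyond the gene end at 98.5 kb, with 6.88 and 2.81 in WT, 7.09 and 10.5 in Npm1c, 6.04 and 8.79 in Flt3-ITD, and 5.91 and 6.77 in DM. This was the only Wapl contact of DM. The third, chr14:34627973-34630007, lay 43.7 kb before the gene and scored 11.2 and 6.99 in WT, 7.19 and 12.1 in Npm1c, 7.40 and 5.50 in Flt3-ITD, and 1.46 and 2.77 in DM. Here all 6 other libraries were above both DM libraries, and DM minus WT was -1.70 (SE 0.41, adjusted p = 0.102 by limma).

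The neighbouring fragment chr14:34630008-34633187 scored 6.11 and 7.03 in WT, 14.1 and 8.33 in Npm1c, 6.59 and 4.37 in Flt3-ITD, and 1.84 and 1.83 in DM. It gave the lowest adjusted p of any single Wapl pair, at DM minus Npm1c of -2.06 (SE 0.36, adjusted p = 0.058 by limma). Inside the gene, chr14:34721452-34722453 scored 6.95 and 6.46 in WT, 3.63 and 6.50 in Npm1c, 3.34 and 4.56 in Flt3-ITD, and 0.98 and 1.96 in DM, with DM minus WT of -1.67 (SE 0.37, adjusted p = 0.0912). No single pair of any member passed the test over all 88,421 pairs on autosomes and X. In a trial of the scripts, 200 pairs were shifted by 2 on the log2 scale, and the DM against WT pair test called 0 of them. With a shift of 4 it called 73.5%. The lack of calls at single pairs thus does not show that differences of about 2 or less were absent. Of the 57 pairs, 13 had an unadjusted p under 0.05 for DM against WT, all of them lower in DM and 7 of them at Wapl, where 6% of all pairs did so in that direction. For DM against Npm1c there were 10, all lower and 8 at Wapl, against 7.8%, and for DM against Flt3-ITD 6 were lower and 1 higher, against 7.14% lower. These counts use all listed pairs. WT had 61.4% of the 57 as contacts and DM 22.8%, against 34.9% and 48.8% of all listed pairs. That favours lower scores in DM, so these counts carry no test. After adjustment the shares of all pairs called were 0.31% for Npm1c against WT, 0.568% for Flt3-ITD against WT, 0.576% for DM against WT, 0.561% for DM against Npm1c, 0.458% for DM against Flt3-ITD and 0.564% for the interaction, and the members had 0 in each.

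Counting only pairs that other groups had brought in, 13 of 14 Wapl pairs had a lower mean in DM than in WT, against 43% of all such pairs. Both DM libraries were below both WT libraries at 9 of the 14 and above them at 0, against 16.4% below over all pairs. Against Npm1c all 15 had a lower mean (50.9% over all pairs) and 10 did not overlap (21.3%). Against Flt3-ITD all 17 had a lower mean (61.2%) and 11 did not overlap (26.7%). The pairs share 1 bait and are not replicates.

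**Figure D3:**
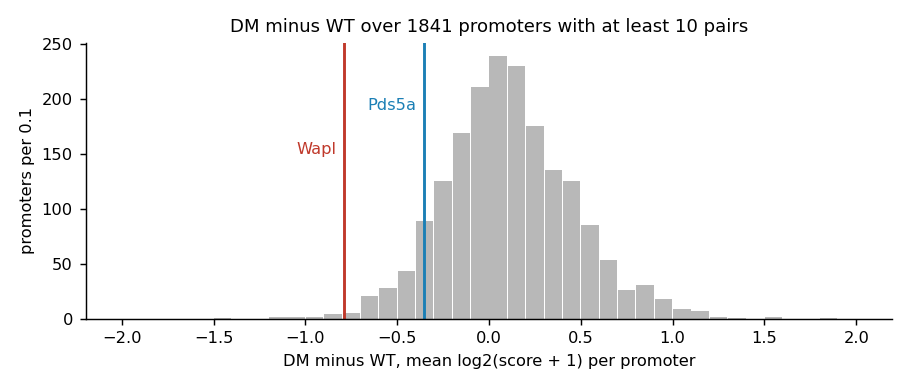
Distribution over 1841 promoters of the DM minus WT difference in mean log2 score, with Wapl and Pds5a marked. Wapl lies in the lower tail at -0.79 and Pds5a at -0.36, while the median of all promoters is 0.09.

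Opn4, in the same stretch of chromosome 14, was also lower in DM. The bait at chr14:34599922-34602464, which holds an end of Opn4 (melanopsin, a light-sensing receptor), lies at -71.5 kb from the Wapl bait and had 11 pairs. Of those it had 6 as contacts in WT, 11 with Npm1c, 4 with Flt3-ITD and 0 in DM. Its mean log2 score was 2.69 and 2.91 in WT, 3.18 and 3.07 in Npm1c, 2.61 and 2.46 in Flt3-ITD, and 1.91 and 2.32 in DM, and DM minus WT was -0.68 (SE 0.18, adjusted p = 0.0376 by limma). The call was lost without WT replicate 2 (adjusted p = 0.216) and without either DM library (0.228 and 0.0659). It shared 4 other ends with Wapl, so both values partly concern the same fragments. A bait at the Ldb3 and Opn4 ends, with 4 pairs, had a DM minus WT of -0.94 (adjusted p = 0.119 where all promoters were fitted), and Bmpr1a, with 3 pairs, had -0.34 (adjusted p = 0.494). In that same limma fit the adjusted p was 0.186 for the 11-pair Opn4 bait and 0.183 for Wapl. Further off, with 1 pair each, Mmrn2 and Sncg had -0.12 (adjusted p = 0.909) and Glud1 and Shld2 had 0.29 (adjusted p = 0.761). These neighbours were looked at after the Wapl values were known.

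Short contact range moved with the DM difference across the whole list. For pairs under 25 kb the median DM minus WT was -0.03, and for pairs over 400 kb it was 0.25. Of the promoters whose chosen pairs all lay about as near as those of Wapl, 12 had at least 10, and their differences ran from -0.79, which was Wapl, to 0.68 with a median of 0.24. The Wapl value was the lowest of the 12. The part of contact range in the Wapl value was not tested.

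PDS5A and PDS5B are close relatives that dock on cohesin and can bind both WAPL and the acetylating enzymes that lock cohesin. At Pds5a the shift had the same direction and did not pass. Of its 30 pairs, 17 were contacts in WT, 13 with Npm1c, 10 with Flt3-ITD and 9 in DM. The mean over 19 pairs was 2.82 and 2.91 in WT, 2.81 and 2.82 in Npm1c, 2.75 and 2.61 in Flt3-ITD, and 2.53 and 2.48 in DM, and DM minus WT was -0.36 (SE 0.16, adjusted p = 0.169 by limma, rank 144 from the lowest of 1841). The libraries of DM were both below those of WT. They were also below those of Npm1c and Flt3-ITD, but these groups brought the pairs into the list, which favours that order. On the 22 pairs chosen for DM against Npm1c, DM had 2.57 and 2.35 and Npm1c 2.51 and 2.74. On those chosen for DM against Flt3-ITD, DM had 2.54 and 2.38 and Flt3-ITD 2.63 and 2.43. Of the 19 pairs, 15 had a lower mean in DM, 7 were lower in both DM libraries than in both WT libraries and 3 were higher, against 43%, 16.4% and 25% of all such pairs. After quantile normalization of the libraries, which set the median of all promoters to -0.09 in place of 0.09, Pds5a had -0.53 with an adjusted p of 0.038, and Wapl -0.96 with an adjusted p of 0.00973.

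The other contrasts at Pds5a were small. Npm1c minus WT was -0.00 (adjusted p = 1.00 by limma, 16 pairs), Flt3-ITD minus WT was -0.22 (SE 0.16, adjusted p = 0.342, 17 pairs), DM minus Npm1c was -0.16 (adjusted p = 0.626, 22 pairs), DM minus Flt3-ITD was -0.07 (adjusted p = 0.846, 22 pairs) and the interaction was 0.08 (adjusted p = 0.870). For Flt3-ITD against WT, 13 of the 17 pairs had a lower mean (31.6% over all pairs) and 7 were lower in both libraries than in both WT libraries (9.56% over all pairs). The means of 2832 other promoters were set against that of Pds5a over the 8 HSPC libraries. The closest were the bait chr10:128344887-128353885 (Pearson's r = 0.916), Twsg1 (r = 0.902) and the bait chr2:155732299-155745006 (r = 0.887). The chr10 and chr2 baits hold no start or end of a protein-coding RefSeq gene. These correlations are descriptions over libraries that share their processing.

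**Figure D4:**
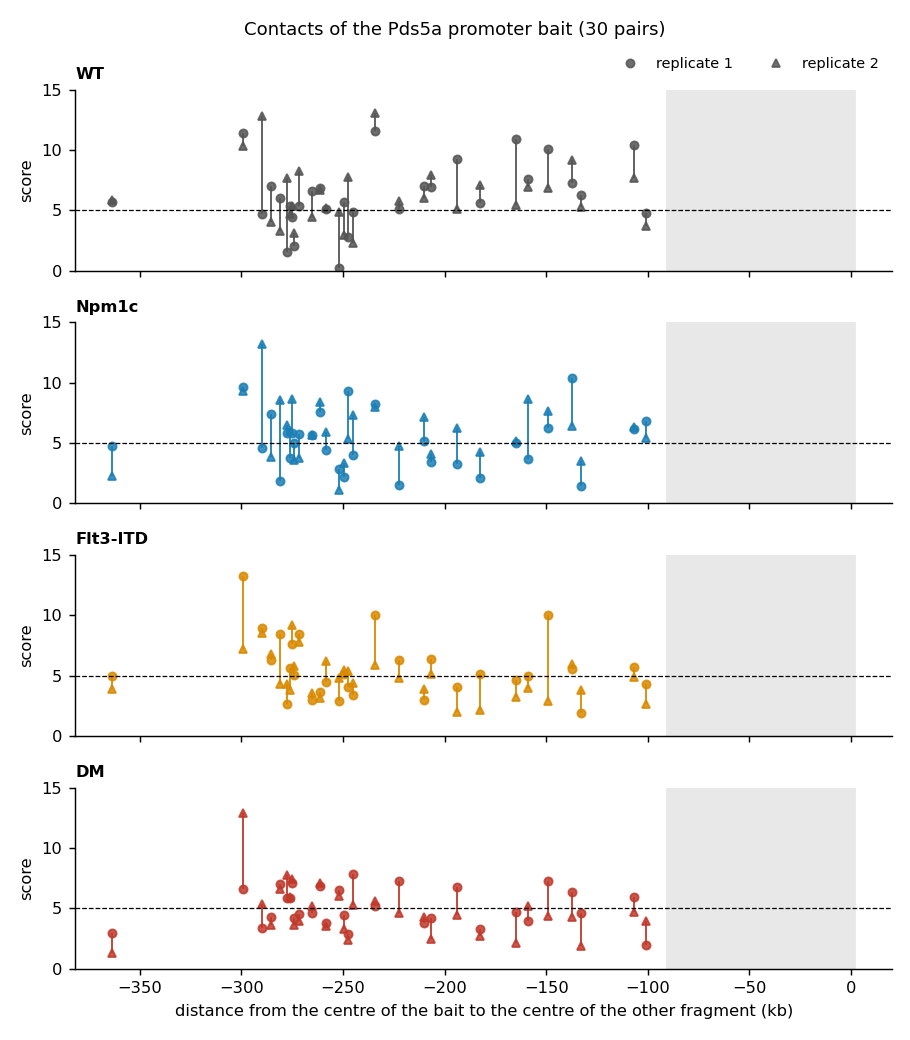
Score of each of the 30 Pds5a pairs in the 8 HSPC libraries, by distance of the other end from the bait in kb; circles are replicate 1, triangles replicate 2, the grey band is the span of the gene and the dashed line marks a score of 5. No other end falls within the gene; all lie from 101 to 364 kb to the left, most of them over Ube2k, Smim14, Ugdh and Lias, with 1 in Rfc1 and 1 between genes.

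The geometry of Pds5a was unlike that of Wapl. All 30 other ends lay at lower coordinates, from 101 to 364 kb from the bait, beyond the 3′ end of the gene, and none lay inside it. The highest scores were on the fragment chr5:65389828-65404144, with ends of Rpl9 (a ribosomal protein gene) and Lias (lipoic acid synthetase), at 11.4 and 10.3 in WT, 9.65 and 9.33 in Npm1c, 13.3 and 7.18 in Flt3-ITD, and 6.58 and 12.9 in DM. The groups overlapped there. It was followed by chr5:65459187-65464928 inside Smim14, at 11.5 and 13.0 in WT, 8.21 and 8.01 in Npm1c, 10.0 and 5.90 in Flt3-ITD, and 5.21 and 5.60 in DM, with DM minus WT of -1.05 (SE 0.33, adjusted p = 0.156 by limma). Both WT libraries were the highest and both DM libraries the lowest of the 8. Next was a Lias fragment, chr5:65404145-65408777, at 4.70 and 12.8 in WT, 4.57 and 13.2 in Npm1c, 8.98 and 8.55 in Flt3-ITD, and 3.39 and 5.40 in DM, where the replicates of WT and Npm1c differed more than the groups.

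The difference between groups at Pds5a was not even along the region. Over the 10 Smim14 fragments there were 7 contacts in WT, 4 with Npm1c, 3 with Flt3-ITD and 2 in DM, and over the 5 Ube2k fragments 4, 4, 1 and 0. Over the 9 fragments of Ugdh (UDP-glucose dehydrogenase) the counts were 3, 4, 3 and 5, so DM had the most there. A fragment with an end of Ugdh, from 65412135, scored 5.98 and 3.24 in WT and 7.05 and 6.65 in DM. Its scores were 1.85 and 8.57 in Npm1c and 8.48 and 4.34 in Flt3-ITD. DM alone had it as a contact. The Ugdh start fragments included chr5:65435287-65440382, a bait of its own, which scored 5.12 and 5.21 in WT, 4.45 and 5.88 in Npm1c, 4.45 and 6.24 in Flt3-ITD, and 3.76 and 3.52 in DM. The fragment with the facing ends of Smim14 and Ube2k (a ubiquitin-conjugating enzyme), from 65535948, scored 7.59 and 6.94 in WT, 3.68 and 8.65 in Npm1c, 4.94 and 4.02 in Flt3-ITD, and 3.99 and 5.24 in DM. That pair was also listed with the roles of bait and other end exchanged, at 6.32 and 6.53 in WT, 4.07 and 9.26 in Npm1c, 4.54 and 4.53 in Flt3-ITD, and 3.98 and 7.61 in DM. From both sides the second Npm1c library was the highest and both Flt3-ITD libraries were under 5. Flt3-ITD alone had the fragments with ends of Lias, from 65408778, and Smim14, from 65445670, as contacts. The Lias fragment scored 7.02 and 4.01 in WT and 7.38 and 3.85 in Npm1c. It had 6.30 and 6.81 in Flt3-ITD and 4.26 and 3.63 in DM. The Smim14 fragment scored 5.65 and 2.96 in WT and 2.20 and 3.36 in Npm1c. It had 5.11 and 5.46 in Flt3-ITD and 4.48 and 3.33 in DM.

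Pds5b reached much further, and no difference between its groups passed a test. Of its 8 pairs, 4 were contacts in WT, 4 with Npm1c, 7 with Flt3-ITD and 3 in DM. Its strongest partner was the fragment with the start of Brca2 and an end of Zar1l, 153 kb away. BRCA2 is a recombination repair protein that has been reported to bind PDS5B. That pair scored 23.1 and 9.83 in WT, 21.8 and 18.0 in Npm1c, 10.0 and 16.7 in Flt3-ITD, and 12.5 and 12.9 in DM, and it was the only Pds5b pair that was a contact in all 4 groups. The WT replicates were the highest and the lowest of the 8 libraries.

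The second pair, with a fragment of Fry 185 kb away, scored 13.7 and 12.2 in WT, 9.37 and 10.4 in Npm1c, 11.2 and 8.05 in Flt3-ITD, and 4.42 and 6.64 in DM, with DM minus WT of -1.12 (SE 0.33, adjusted p = 0.143 by limma). The third, with Stard13 at 690 kb, scored 7.25 and 2.62 in WT, 2.88 and 14.8 in Npm1c, 8.85 and 9.93 in Flt3-ITD, and 12.2 and 4.92 in DM, so replicates disagreed in 3 of the 4 groups. Its furthest contacts joined it to Hsph1, a heat shock protein gene (8.37 and 6.48 in WT, 2.78 and 0.00 in Npm1c, 8.56 and 12.1 in Flt3-ITD, 0.00 and 7.81 in DM). On the other side it met Rfc3, a clamp loader subunit (6.34 and 0.00 in WT, 0.00 and 7.75 in Npm1c, 8.87 and 4.03 in Flt3-ITD, 8.11 and 18.4 in DM). In both cases a group held a score of 0.00 beside one over 6. With a minimum of 5 pairs, DM minus WT was -0.32 for Pds5b (SE 0.32, adjusted p = 0.606, 7 pairs) and DM minus Flt3-ITD was -0.58 (SE 0.28, adjusted p = 0.326), where 3% and 0.258% of promoters were called.

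Smc1a, the core SMC subunit encoded on the X chromosome, had 1 HSPC pair. It joined the bait to a fragment at Phf8 (a histone demethylase gene), chrX:151537653-151545627, 472 kb away. The scores were 6.70 and 5.82 in WT, 5.24 and 2.76 in Npm1c, 1.22 and 2.93 in Flt3-ITD, and 1.23 and 2.38 in DM. Both libraries of each mutant were below both WT libraries. WT brought this pair into the list, so its WT scores are high by selection. DM minus WT was -1.40 (SE 0.42, adjusted p = 0.147 by limma) and Flt3-ITD minus WT was -1.30 (adjusted p = 0.248).

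In WT neutrophils the members had 6 contacts, 3 for Pds5b, 2 for Pds5a, 1 for Smc1a and 0 for Wapl, whose promoter had 13 in WT HSPCs. The neutrophil list is shorter and holds only pairs at 5 or more, so an unlisted pair has no score here. Pds5b with Brca2 and Zar1l scored 13.3 and 7.30, with Fry 6.86 and 7.23, and with N4bp2l1, 79 kb away, 11.2 and 8.67. For N4bp2l1 the WT HSPC scores were 5.54 and 3.75, and neutrophil minus HSPC was 0.96 (adjusted p = 0.179 by limma). For Fry it was -0.79 (adjusted p = 0.203). Pds5a met the Smim14 and Ube2k fragment at 5.28 and 5.27. The Smc1a contact was a different one, with the ends of Hsd17b10 and Ribc1 9.26 kb away, at 6.01 and 5.43. Of the 5 pairs in both lists none was called, beside 0.206% of pairs, and no member had the 10 pairs needed for the promoter test, in which 14.3% of 112 promoters were called.

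The 6 genes with no bait of their own appear only as the far end of other promoters' contacts, or through baits inside the gene that hold neither end. These lie outside the rule above and were chosen after the values were seen. Smc3, the other core SMC subunit, was met by 13 HSPC pairs, 11 of them from the promoter of Smndc1, a splicing factor gene. Those 11 had 1 contact in WT, 8 with Npm1c, 10 with Flt3-ITD and 7 in DM. Their mean log2 score was 2.29 and 2.04 in WT, 2.76 and 3.15 in Npm1c, 3.28 and 3.33 in Flt3-ITD, and 2.92 and 3.03 in DM, so all mutant libraries were above both WT libraries. Both libraries were above both WT libraries at 6 of the 11 for Npm1c, 10 for Flt3-ITD and 8 for DM, where 26.3%, 34% and 32.6% of all listed pairs were. Since mutants alone brought nearly all of them into the list, these counts carry no test. On 21 pairs chosen by other groups, the Smndc1 promoter had a Flt3-ITD minus WT of 0.74 (SE 0.18, adjusted p = 0.0274 by limma) and, on 31 pairs, a DM minus WT of 0.38 (adjusted p = 0.164). The first was lost without WT replicate 2 (adjusted p = 0.133) or either Flt3-ITD library (0.134 and 0.184), and after quantile normalization (0.46, adjusted p = 0.227), which moved the median of all promoters for Flt3-ITD minus WT from 0.28 to 0.01. The fragment inside Smc3 from 53631085, which had the highest Flt3-ITD scores of the 11, scored 3.4 and 1.6 in WT, 6.1 and 10.6 in Npm1c, 17.0 and 15.5 in Flt3-ITD, and 11.2 and 7.8 in DM, with Flt3-ITD minus WT of 2.34 (SE 0.40, adjusted p = 0.0583).

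Rad21, the subunit that closes the ring, had a single bait inside the gene, 579 bp from the gene boundary at the higher coordinate. The 1 pair of that bait led 7368 kb away to Ebag9. It scored 0 and 0 in WT and Npm1c, 10.1 and 6.6 in Flt3-ITD, and 0 and 2.4 in DM. The Ebag9 promoter, as bait, met the same part of Rad21 at 15.9 and 11.0 in Flt3-ITD, 0 and 5.3 in DM, and 0 in all 4 other libraries. The pair was thus seen from both sides, in Flt3-ITD and in the second DM library. Flt3-ITD minus WT on the log2 scale was 3.20 (SE 0.54, adjusted p = 0.0542 by limma) from Rad21 and 3.83 (SE 0.73, adjusted p = 0.0825) from Ebag9, and neither passed. Flt3-ITD alone brought both pairs into the list, so these values are high by selection. No count of reads stands behind these scores, so a score of 0 cannot be given a limit.

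Nipbl, the loader, had a bait inside the gene with 6 HSPC pairs and 5 neutrophil pairs, 2 of them in both lists. The pair at 142.9 kb scored 10.5 and 5.5 in WT, 7.3 and 9.0 in Npm1c, 8.8 and 6.2 in Flt3-ITD, 6.8 and 8.7 in DM, and 11.0 and 11.6 in neutrophils. The HSPC groups overlapped. Stag1 was met by 18 pairs from 5 baits, with 8 contacts in WT, 10 with Npm1c, 9 with Flt3-ITD and 6 in DM. The promoter of Msl2 met a fragment inside it at 9.4 and 11.0 in WT, 11.1 and 16.4 in Npm1c, 16.2 and 10.7 in Flt3-ITD, 4.6 and 6.0 in DM, and 6.5 and 7.7 in neutrophils, so DM was the lowest group. The fragment with the outermost annotated start of Stag1 was met by Ppp2r3a, at -620 kb, with 6.0 and 6.1 in WT, 1.3 and 8.4 in Npm1c, 7.3 and 5.2 in Flt3-ITD, and 5.0 and 5.6 in DM, and the fragment with the internal RefSeq start was met by Msl2 with 6.6 and 5.0 in WT, 4.3 and 9.2 in Npm1c, 7.1 and 7.7 in Flt3-ITD, and 7.9 and 7.6 in DM. At the first of these both DM libraries were below both WT libraries, and at the second both DM and both Flt3-ITD libraries were above both WT libraries. Stag2 had neither a bait nor a listed contact of any other promoter.

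Ctcf was met by 38 HSPC pairs from 12 baits. Of these, 17 were contacts in WT, 14 with Npm1c, 13 with Flt3-ITD and 7 in DM. The mean log2 score was 2.37 and 2.81 in WT, 2.59 and 2.43 in Npm1c, 2.53 and 2.58 in Flt3-ITD, and 2.28 and 2.23 in DM. DM was lowest, though the first WT library lay closer to DM than to the second. The mean of DM was below that of WT at 31 of the 38, against 40.9% of all listed pairs. Both DM libraries were below both WT libraries at 18, against 19.4%. WT had 17 of the 38 as contacts and DM 7, which favours both counts. The pairs share 12 baits and are not replicates. The fragment with the Ctcf start, chr8:105635582-105636943, went the other way with the Cenpt and Thap11 bait 219 kb off, at 1.0 and 4.7 in WT, 3.6 and 1.4 in Npm1c, 7.7 and 6.4 in Flt3-ITD, and 9.1 and 10.3 in DM (DM minus WT 1.66, SE 0.53, adjusted p = 0.161 by limma).

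The bait inside Ctcf, chr8:105654189-105661990, had 12 pairs, with 2 contacts in WT, 10 with Npm1c, 5 with Flt3-ITD and 0 in DM. Its mean log2 score was 2.26 and 2.24 in WT, 2.88 and 2.77 in Npm1c, 2.56 and 2.60 in Flt3-ITD, and 2.08 and 1.81 in DM. Each single mutant was above WT and DM was below it. After quantile normalization Flt3-ITD overlapped WT, and Flt3-ITD minus WT on 10 pairs chosen by other groups went from 0.16 to -0.13. The interaction was -1.21 (SE 0.23, adjusted p = 0.0127 by limma). It uses all listed pairs, and Npm1c had 10 of the 12 as contacts and DM had 0, so the choice of pairs favours a negative value and the p is not read as a test. It rose above 0.05 without either Flt3-ITD library (adjusted p = 0.05003 and 0.0702) and without DM replicate 2 (0.0668). On pairs chosen by other groups, DM minus WT was -0.31 (adjusted p = 0.253, 12 pairs) and DM minus Flt3-ITD was -0.46 (adjusted p = 0.101, 10 pairs), and neither passed. The pair with a Dus2 fragment from 106038860 scored 7.9 and 4.9 in WT, 6.5 and 8.3 in Npm1c, 5.1 and 4.1 in Flt3-ITD, and 1.6 and 0.2 in DM.

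**Figure D5:**
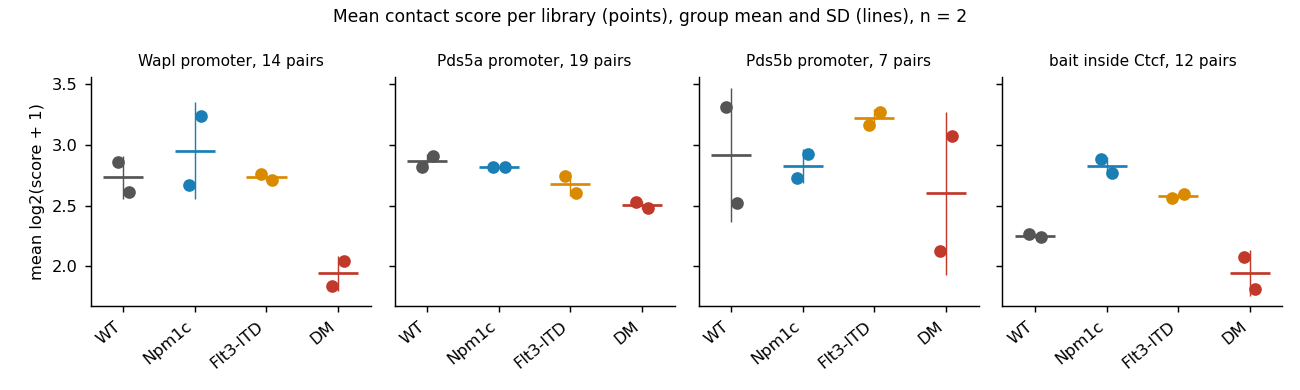
Mean log2 (score + 1) per library (points) with the group mean and SD (lines, n = 2) for the 14 Wapl, 19 Pds5a and 7 Pds5b pairs of the DM against WT comparison and the 12 pairs of the bait inside Ctcf. DM lies below all other groups for Wapl, at 1.84 and 2.04, and for the bait inside Ctcf, at 2.08 and 1.81, while the Pds5b points of WT and DM lie far apart and overlap. Npm1c or Flt3-ITD brought the Wapl, Pds5a and Pds5b pairs into the list, which favours higher points in those groups. Npm1c had 10 of the 12 Ctcf pairs as contacts and DM 0, which favours a low DM there.

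Of 88 contacts that other promoters made inside the members, 1 had an adjusted p under 0.05 in any contrast, for DM against WT, where 0.576% of all pairs did. The bait of Rfc3 met chr5:150676371-150677218 inside Pds5b, just past the Pds5b promoter bait and at -974 kb from Rfc3, at 0.2 and 0.0 in WT, 2.1 and 3.3 in Npm1c, 0.8 and 2.0 in Flt3-ITD, and 5.8 and 6.0 in DM. DM minus WT was 2.64 (SE 0.37, adjusted p = 0.0304 by limma). DM alone reached 5 and so brought the pair into the list, so this p comes from the values that selected the pair and is no test of them. It was 0.0633 to 0.167 when any 1 WT or DM library was left out. The promoter pair of Pds5b and Rfc3 themselves, given above, had its highest score, 18.4, in DM. DM alone brought that pair into the list too, so the score is high by selection. Its other DM library, at 8.11, was below the first Flt3-ITD library, at 8.87. Inside Pds5a a further bait, chr5:65655369-65661021, had 13 pairs with means of 2.30 and 2.68 in WT, 2.03 and 2.46 in Npm1c, 2.58 and 2.70 in Flt3-ITD, and 2.71 and 3.08 in DM. DM was highest there and Npm1c lowest, and DM had 9 of the 13 as contacts, so it brought most of them into the list. Its DM minus Npm1c on 10 pairs was 0.45 (SE 0.21, adjusted p = 0.241 by limma). That difference ran from 0.22 to 0.69 when 1 library was left out.

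A list of 42 other genes of cohesin, condensin, the SMC5/6 complex and loop anchoring was read from the same fits. A bait was listed for 33, and 6 to 10 of them had enough pairs in the HSPC contrasts. Only Ncapd2, a condensin subunit, was called, at 2 of 9 promoters for Flt3-ITD against WT (7.21% of all promoters) and 1 of 8 for DM against Flt3-ITD (4.3%). Its bait shared with Gapdh had a Flt3-ITD minus WT of 0.61 (SE 0.18, adjusted p = 0.0479 by limma, 17 pairs). There DM minus Flt3-ITD was -0.83 (SE 0.17, adjusted p = 0.0299 by limma). Its bait shared with Mrpl51 had a Flt3-ITD minus WT of 0.64 (SE 0.18, adjusted p = 0.0456, 10 pairs). Each call was lost without 1 or more single libraries, with adjusted p up to 0.276 against WT and 0.197 against Flt3-ITD, and both calls against WT after quantile normalization (0.311 and 0.323). For DM against WT the list gave 0 called in either direction, with a median of 0.10 beside 0.09 over all promoters.

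The cell labels were set against the contacts of marker genes in the WT libraries. Neutrophil markers had 26 contacts in WT HSPCs and 62 in neutrophils, HSPC markers 8 and 3, erythroid markers 26 and 8, B cell markers 1 and 0, and T and NK cell markers 0 and 2. The HSPC libraries thus hold erythroid and myeloid marker contacts as well, and their part in the differences between genotypes was not tested.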

How the data were processed

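The 10 libraries of promoter-capture Hi-C fell into 5 groups of 2. Per the labels, the build was mm10, cells were fixed in 1% formaldehyde for 10 minutes, and 39684 probes covered 22047 promoters. The aligner and interaction caller are not given in the sources used here. The authors deposited 1 score per pair and library. The deposited score is never negative and is not a count, so depth is unknown, and the replicates limit the precision. Genes were placed with RefSeq.

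The log2 of score plus 1 was fitted in R 4.3.3 by the moderated linear models of limma 3.58.1, with two-sided tests adjusted by the Benjamini-Hochberg method and called under 0.05. The 8 HSPC libraries shared 1 fit over all pairs on autosomes and X, and likewise over all promoters; 203 pairs elsewhere were left out. Promoter means used pairs that groups outside the contrast brought to a score of 5, at least 10 per promoter, except in the interaction, which used all listed pairs. The neutrophil fit used the 4 WT libraries. Scripts were tested on simulated data.

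All members were named, with the 3 highest pairs of each, pairs at gene ends, and called list genes. Members and lists were chosen with earlier results of these data known.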

Additional observations from a re-analysis of the deposited data

Results flagged for a closer look

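The bait inside Ctcf was marked because the effect of Npm1c on its mean log2 score with Flt3-ITD present minus the effect without it was -1.21 (interaction, limma, adjusted p = 0.0127, 12 pairs). Npm1c had 10 of the 12 pairs as contacts and DM had 0, so the choice of pairs favours this sign, and the p rose above 0.05 without either Flt3-ITD library or without DM replicate 2.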

How the results depend on the processing

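No member pair was called under any setting tried. Leaving out 1 library removed most or all calls over all pairs in every HSPC contrast. For DM against WT and against Flt3-ITD, calls over all promoters also fell in most of these settings. A call lost in this way is thus not particular to Wapl. The count of member promoters called for DM against WT, which was 1 (Wapl), became 2 after quantile normalization, 0 with a pseudocount of 0.1 or a minimum of 5, 3 or 1 pairs, and 0 when any 1 library was left out. For DM against Flt3-ITD the count of 1 became 0 with a pseudocount of 0.1, with a minimum of 5, 3 or 1 pairs, and with all listed pairs (Wapl adjusted p = 0.0536), and 0 without any 1 library. For DM against Npm1c the count of 0 became 1 after quantile normalization and with all listed pairs, and 0 to 1 without 1 library, and for the interaction 0 to 1. The Wapl difference kept its direction in every setting of the DM contrasts. Among the promoter means of Wapl and Pds5a, these differences reversed: Pds5a Npm1c minus WT was 0.032 with a pseudocount of 0.1 and -0.12 to 0.12 without 1 library, Wapl Flt3-ITD minus WT was -0.16 to 0.049, Pds5a DM minus Flt3-ITD was 0.038 after quantile normalization and -0.17 to 0.035 without 1 library, and the Pds5a interaction was -0.026 to 0.19. Of the baits inside genes, Ctcf Flt3-ITD minus WT (0.16) was -0.13 and Pds5a Flt3-ITD minus WT (0.19) was -0.07 after quantile normalization. Pds5a Flt3-ITD minus WT was -0.06 without WT replicate 1, and Npm1c minus WT (-0.20) was 0.12 without Npm1c replicate 1. The cause was not tested. At a threshold of 10 the members had 3 contacts in WT, 1 in Npm1c, 1 in Flt3-ITD, 1 in DM and 0 in neutrophils, and with the mean of the replicates at 5 or more DM had 22.

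Replicates with the same number did not deviate together (correlations from -0.01 to 0.06), so no pairing was assumed. With a replicate block the Wapl promoter kept its calls for DM against WT (adjusted p = 0.0424) and against Flt3-ITD (0.0495), while Opn4 (0.0511) and both Ncapd2 baits against WT (0.0656 each) lost theirs, and the Rfc3 contact inside Pds5b moved to 0.0527. It changed no other call named in the report.

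With only the 4 libraries compared, a setting added after the data were seen, the Wapl promoter gave adjusted p = 0.0294 against WT, 0.0159 against Flt3-ITD and 0.135 against Npm1c. Quantile normalization moved the calls over all promoters for the interaction from 8 higher and 204 lower to 84 and 142, and for Flt3-ITD against WT from 134 and 0 to 5 and 2. The limits are 2 libraries per group, a score with no stated unit, and a list built by a threshold on the same scores.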
